A study of Mus musculus with 16 samples.

Results

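The 7 genes described here encode neuronal subunits of voltage-gated sodium channels: the 4 alpha subunits Scn1a, Scn2a, Scn3a and Scn8a and the 3 beta subunits Scn2b, Scn3b and Scn4b. They were found by matching their symbols to the Ensembl mouse IDs of a count table of 55573 genes from 16 libraries, and all 7 were present. The set was proposed with its levels by group in these libraries already known. It was thus selected on those CPM values in the 4 groups, so the differences between groups given below for the 7 genes are descriptions, and no test is read from them.

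RNA was taken from the cerebral cortex of untreated mice at around postnatal day 180. Aifm1-KI mice carry a deletion of arginine 200 in the protein encoded by Aifm1, made by knock-in, and Hq-mut mice carry the Harlequin allele of the same gene in a stock labelled B6CBACa Aw-J/A-Aifm1Hq/J. Each mutant group has its own littermate wild types, Aifm1-WT and Hq-WT, the strain of all 4 groups is labelled C57BL/6, and each group holds 4 libraries. Aifm1 encodes apoptosis-inducing factor, a mitochondrial flavoprotein needed for assembly of the respiratory chain, and Harlequin is an insertion in that gene that lowers its expression. Sex is not given in the sources used here, nor whether a library is 1 animal or a pool, so a p-value here covers the spread among these libraries, which may be technical.

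Voltage-gated sodium channels open when a neuron is depolarized and carry the inward current that makes the upstroke of the action potential. The large alpha subunit forms the pore, the voltage sensors and the gate that closes the open channel, while the small beta subunits are single-pass membrane proteins that tune gating, help bring the channel to the surface and act as adhesion molecules. The channels are held at high density at the axon initial segment and the nodes of Ranvier by ankyrin-G. In mouse cortex, Scn2a and Scn8a are the main alpha subunits of excitatory neurons, Scn1a is the main one of parvalbumin interneurons, and Scn3a is mostly a channel of the developing brain.

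The alpha subunit transcripts are alike in part, which bears on how reads of 51 bases are assigned among them. Of all 51-base windows, 3.93% of those of Scn1a, 5.49% of those of Scn2a and 6.36% of those of Scn3a also occur in another sodium channel gene. For Scn8a the share is 0.0312%, and the 3 beta subunits share no such window with any sodium channel gene. Reads from those windows could be left uncounted or split. The shares count sequence windows over the transcripts of a gene and not reads. How far the levels of Scn1a, Scn2a and Scn3a are affected, and whether alike in all libraries, was thus not measured.

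The genes sit in clusters (GRCm38, GENCODE M21, all annotated as protein-coding). Scn3a (ENSMUSG00000057182) lies at chr2:65457118-65567627 on the minus strand, Scn2a (ENSMUSG00000075318) at chr2:65620771-65767447 on the plus strand and Scn1a (ENSMUSG00000064329) at chr2:66270778-66440840 on the minus strand. Scn8a (ENSMUSG00000023033) is alone at chr15:100869858-101045938 on the plus strand. The beta subunits are all on the plus strand of chromosome 9, with Scn3b (ENSMUSG00000049281) at chr9:40269217-40291618, Scn2b (ENSMUSG00000070304) at chr9:45117782-45130070 and Scn4b (ENSMUSG00000046480) at chr9:45138395-45154152. Scn2b and Scn4b are neighbours with 8324 bases between them. An antisense or other noncoding gene overlaps Scn1a (Gm13630), Scn3a (Gm13595), Scn2b (Gm10684) and Scn3b (Gm47266) on the opposite strand, and in each case 0 exon bases are shared.

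Depth was lowest in Hq-WT 3 with 10671580 counts and highest in Aifm1-KI 2 with 32551594, and a member had from 522 to 15561 counts in a library. Aifm1 itself was at 3.32 ± 0.79 CPM (SD, n = 4) in Hq-mut and 23.9 ± 1.25 CPM (SD, n = 4) in Hq-WT, where CPM, counts on the scale of a common library size, carry TMM (trimmed mean of M values) factors over the 16 libraries. On the log2 scale this is -2.87 (SE 0.19, edgeR adjusted p = 0.000348), and in Aifm1-KI the value was 0.08 (SE 0.07, edgeR adjusted p = 0.679). The knock-in label cannot be checked by gene counts, since the deletion is 1 codon. Markers of other regions set some libraries apart: the summed level of 11 striatal markers was 616 CPM in Aifm1-KI 2, 572 CPM in Aifm1-KI 4 and 839 CPM in Hq-mut 3 against 223 to 354 CPM in the other 13 libraries. All 10 markers of cortical excitatory neurons were detected in every library, at a summed 5178 CPM in Aifm1-KI 2 and 6458 to 8120 CPM elsewhere. Choroid plexus markers summed to 2811 CPM in Aifm1-KI 2 and 5470 CPM in Hq-WT 2, against 5.56 to 379 CPM in the rest. Hippocampal markers summed to 216 CPM in Aifm1-KI 2 and 183 CPM in Aifm1-KI 4, against 61.7 to 143 CPM in the rest. The mean log2 CPM of 6 liver markers was 4.62 in Aifm1-WT 1 and 4.81 in Aifm1-WT 2, against -1.49 to 2.09 in the rest.

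Per kilobase of merged exons, Scn2b was the highest of the 7 transcripts, at 65.5 ± 7.48 CPM per kilobase (SD, n = 16), and the highest in 16 of 16 libraries. Scn2a followed at 34.4 ± 4.71 CPM per kilobase and Scn8a, the channel of the distal initial segment and of nodes of Ranvier, at 30.3 ± 4.76 CPM per kilobase (SD, n = 16). These neighbours lie within their spread, although Scn2a was above Scn8a in 13 of 16 libraries. Scn3b was next at 23.4 ± 6.85 CPM per kilobase, then Scn1a at 17.0 ± 4.96 and Scn4b at 15.1 ± 8.28 CPM per kilobase (SD, n = 16), again neighbours whose ranges overlap. Scn3a, the developmental channel, was last at 4.52 ± 1.04 CPM per kilobase, below Scn4b in 15 of 16 libraries. The order was the same when the longest transcript was used as the length. Fewer cells of a type and less RNA per cell cannot be told apart in such bulk samples.

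Among the alpha subunits, per kilobase, Scn2a made up 40.0% ± 3.53, Scn8a 35.1% ± 1.93, Scn1a 19.5% ± 3.49 and Scn3a 5.33% ± 1.49 of their summed level (SD, n = 16). The Scn8a share ran from 31.5% to 37.6% over the libraries and that of Scn3a from 3.58% to 9.79%. Among the 3 beta subunits, Scn2b made up 63.1% ± 3.46, Scn3b 22.7% ± 6.78 and Scn4b 14.2% ± 6.28 of the summed level (SD, n = 16). The Scn4b share was 20.1% ± 6.65 in Hq-mut and 9.70% ± 3.82 in Aifm1-KI (SD, n = 4), with 13.9% ± 7.52 in Hq-WT and 12.9% ± 2.39 in Aifm1-WT.

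Scn4b varied most, with its highest library 5.90-fold above its lowest, and Scn2b least, at 1.46-fold. Scn1a spanned 3.19-fold, Scn3b 2.65-fold, Scn3a 2.35-fold, Scn8a 1.78-fold and Scn2a 1.57-fold. The spread was not even over the groups: Scn1a spanned 1.15-fold among the Aifm1-WT libraries and 1.94-fold among Aifm1-KI, and Scn3b 1.22-fold and 2.06-fold.

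**Figure D1:**
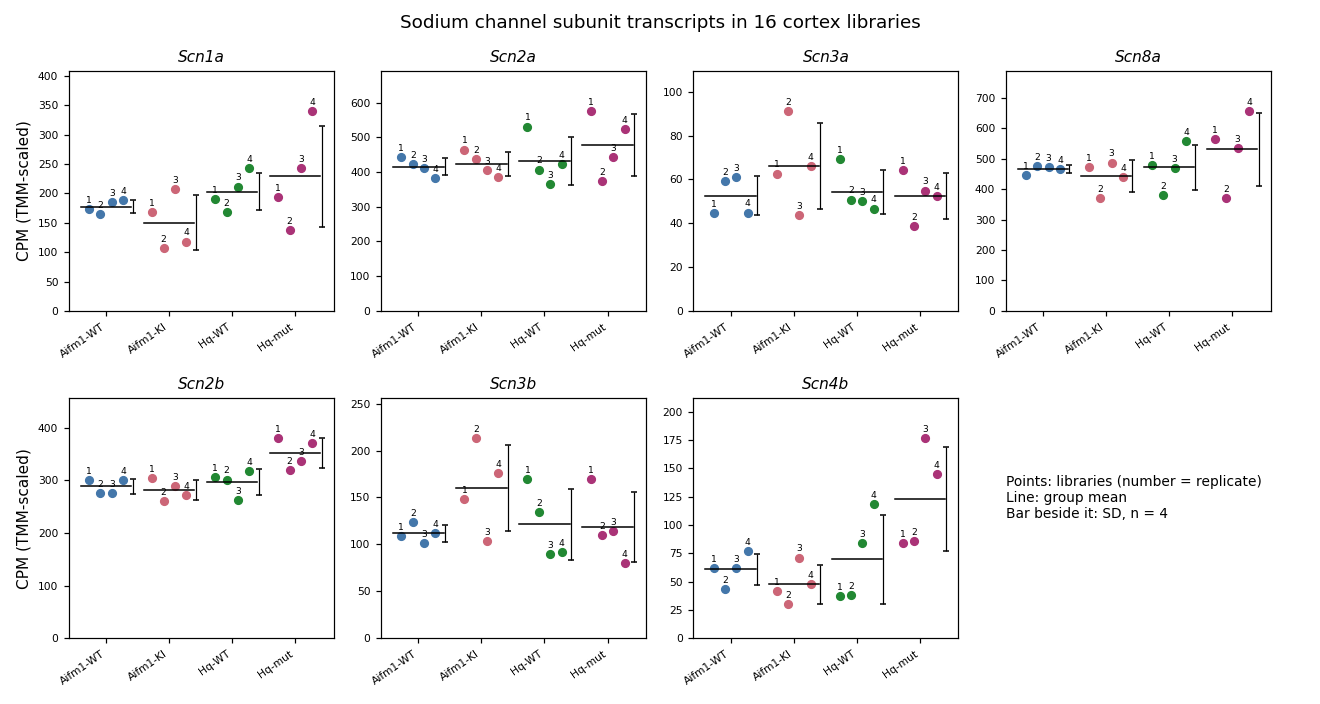
Level of each of the 7 transcripts in every library (vertical axes, TMM-scaled CPM from 0) by group (horizontal axes), with points numbered by replicate, a line at the group mean and a bar for the SD (n = 4). The Scn2b libraries of Hq-mut lie at 320.2 to 381 CPM, above the 262 to 319 CPM of Hq-WT, and for all other members the groups of a line overlap.

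In the Aifm1 line the question is what the deletion of arginine 200 changes in the cortex. None of the 7 transcripts was called, with log2 fold changes from -0.35 to 0.54, and for all 7 the levels of the groups overlapped. Over all genes edgeR called 0 of 18383 in this comparison (0%), 2094 had an unadjusted p under 0.05, DESeq2 called 82 and limma-voom 0.

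Scn3b encodes the beta subunit that associates with the pore without a disulfide bond. It was at 148, 213, 104 and 176 CPM in Aifm1-KI 1 to 4 and at 109, 124, 102 and 112 CPM in Aifm1-WT 1 to 4. Knock-in libraries 1, 2 and 4 lie above every wild type, and library 3 lies within them. The log2 fold change was 0.54 (SE 0.18), and without Aifm1-KI 2 and 4 it was 0.19 (SE 0.13).

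Scn3a went with it in the same libraries, at 62.7, 91.3, 43.8 and 66.1 CPM in Aifm1-KI 1 to 4 and 44.8, 59.2, 61.1 and 44.9 CPM in Aifm1-WT 1 to 4. Its log2 fold change was 0.35 (SE 0.20), 0.15 without Aifm1-KI 2 and 0.04 (SE 0.17) without Aifm1-KI 2 and 4. Aifm1-KI 2, the library with the lowest excitatory marker level, holds the highest Scn3a and the highest Scn3b of all 16 libraries.

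Scn1a was at 168, 107, 207 and 118 CPM in Aifm1-KI 1 to 4 and 173, 164, 185 and 189 CPM in Aifm1-WT 1 to 4. Libraries 2 and 4 are low and library 3 is above all wild types, so the groups overlap on both sides. The log2 fold change was -0.23 (SE 0.19), and without Aifm1-KI 2 and 4 it was 0.09. Scn4b, the beta subunit linked to resurgent sodium current and abundant in striatal projection neurons, was at 41.8, 30.0, 71.2 and 47.8 CPM in Aifm1-KI 1 to 4 against 61.9, 43.5, 61.7 and 76.8 CPM in Aifm1-WT 1 to 4. Its log2 fold change was -0.35 (SE 0.25), and without Aifm1-KI 2 and 4 it was -0.11 (SE 0.23). The knock-in libraries with the most striatal marker RNA, 2 and 4, thus hold the lowest Scn1a of the group and 30.0 and 47.8 CPM of Scn4b. What those markers contribute to the members' values in this line was not tested beyond a fit that takes the striatal marker level as covariate, in which Scn3b was at -0.12 (SE 0.11), Scn3a at -0.25, Scn1a at 0.33 and Scn4b at 0.17.

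The other members had fold changes near 0 in this line. Scn2a was at 424 ± 34.4 CPM in Aifm1-KI and 415 ± 24.5 CPM in the wild types (SD, n = 4), 0.05 on the log2 scale (SE 0.07). Scn8a had a log2 fold change of -0.06 (SE 0.08), with Aifm1-KI 2 at 372 CPM and the other knock-in libraries at 440.3 to 487 CPM. For Scn2b, which is joined to the alpha subunit by a disulfide bond, it was -0.02 (SE 0.06). Beside the 0 members above and 0 below all wild types, 2.03% of all genes tested lay wholly above and 2.83% wholly below.

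In the Harlequin line the question is the same for an allele in which Aifm1 itself is low. Scn4b and Scn2b were higher in the mutant in all 4 pairs of libraries with the same number, and the other 5 members were not. Same-numbered libraries of this line vary together over all genes, so the values are set side by side by pair. None of the 7 was called, with or without the pair as a block, and 3 of 17969 genes were in either fit (0.0167%). At an unadjusted edgeR p under 0.05 there were 385 genes without the block and 1433 with it.

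Scn4b was at 37.1, 38.3, 84.2 and 119 CPM in Hq-WT 1 to 4 and at 84.2, 86.0, 177 and 145 CPM in Hq-mut 1 to 4. Libraries 1 and 2 are low and libraries 3 and 4 high in both groups, so the groups overlap although each mutant exceeds its partner. The ratio of mutant to wild type was 2.27, 2.25, 2.10 and 1.22 in pairs 1 to 4. The mean log2 ratio was 0.93 ± 0.43 (SD, n = 4 pairs), the fitted log2 fold change 0.80 (SE 0.40) and, with the pair as a block, 0.90 (SE 0.15).

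Striatal markers and Scn4b were both highest in Hq-mut 3. The summed level of the 11 striatal markers was 354, 231, 839 and 324 CPM in Hq-mut 1 to 4 and 276 to 300.0 CPM in Hq-WT. Without pair 3 the blocked log2 fold change of Scn4b was 0.84 (SE 0.18), and the unblocked one was 0.67 (SE 0.47). With that marker level as covariate and no block it was 0.60 (SE 0.47).

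Scn2b was at 307, 302, 262 and 319 CPM in Hq-WT 1 to 4 and at 381, 320.2, 337 and 371 CPM in Hq-mut 1 to 4. On the TMM scale all mutant libraries lie above all wild types, narrowly at the closest point, as was the case for 0.857% of all genes tested. Scn2b took up 8061 of 26603396 counts in Hq-mut 2, a smaller share than the 6563 of 21227688 in Hq-WT 4. The groups thus overlap when CPM are taken over the total count. The log2 fold change was 0.22 (SE 0.10), a level 1.17-fold higher, and 0.22 (SE 0.07) with the block. No member lay wholly below the wild types, as did 0.723% of all genes. The 2 members higher in all 4 pairs stand beside 11.9% of all genes tested, and the 0 lower in all 4 beside 6.88%.

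The alpha subunits had mean log2 ratios from -0.05 to 0.16. Scn1a was at 189.8, 168, 212 and 243 CPM in Hq-WT 1 to 4 and 194, 138, 243 and 341 CPM in Hq-mut 1 to 4, with a mean log2 ratio of 0.11 ± 0.32 (SD, n = 4 pairs). Scn8a went from 478, 379, 469.9 and 558 CPM to 565, 369.6, 533 and 657 CPM, with a mean log2 ratio of 0.16 ± 0.13 (SD, n = 4 pairs). Both genes were lowest in pair 2 and highest in pair 4 in either group.

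Pair 2 is the only one in which all 4 alpha subunits were lower in the mutant. The log2 ratios there were -0.28 for Scn1a, -0.12 for Scn2a, -0.39 for Scn3a and -0.04 for Scn8a. In pair 1 Scn3a was lower, at -0.11, and Scn1a, Scn2a and Scn8a were higher. In pairs 3 and 4 all 4 were higher. Choroid plexus markers differed most within pair 2, at 5470 CPM in Hq-WT 2 and 379 CPM in Hq-mut 2, and oligodendrocyte markers did too, at 1940.4 and 4669.8 CPM. Their part in the members' ratios was not tested. The mean log2 ratio was 0.14 ± 0.20 for Scn2a, -0.05 ± 0.26 for Scn3a and -0.03 ± 0.29 for Scn3b (SD, n = 4 pairs).

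**Figure D2:**
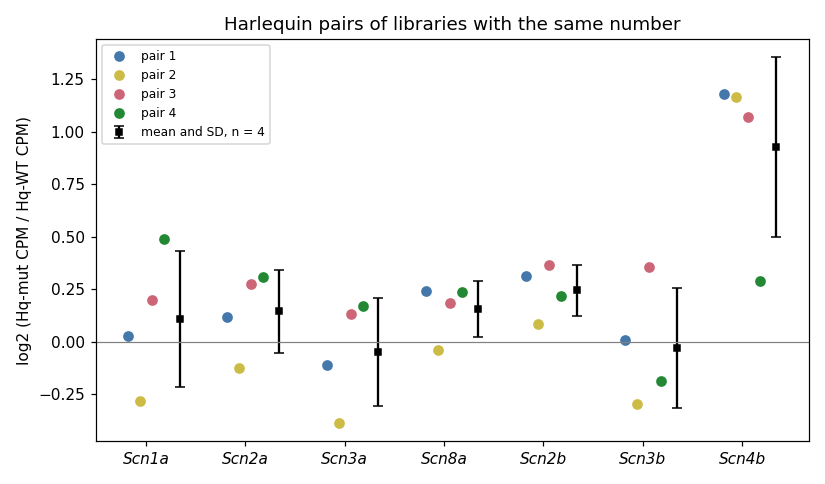
Log2 ratio of Hq-mut to Hq-WT CPM (vertical axis) for each member (horizontal axis) in the 4 pairs of same-numbered libraries, coloured by pair, with the mean and SD beside them. The Scn4b ratios lie between 0.29 and 1.18 and those of Scn2b between 0.09 and 0.36, while each other member has at least 1 pair below 0.

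The difference of the mutant effects, Hq-mut against its wild type minus Aifm1-KI against its own, asks whether a transcript responds differently in the lines. For Scn4b the difference was 1.15 (SE 0.52), and for Scn3b it was -0.59 (SE 0.34). Scn3a was at -0.41 (SE 0.29), Scn1a at 0.38 (SE 0.34), Scn2b at 0.24 (SE 0.12), Scn8a at 0.21 (SE 0.22) and Scn2a at 0.08 (SE 0.19). None of the 7 was called, as were 2 of 19129 genes (0.0105%). This fit has no block, so its SEs do not use the pairing of the Harlequin libraries.

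Hq-WT was set against Aifm1-WT to show how far the lines differ without a mutation. All 7 fold changes were small and above 0, from 0.01 for Scn8a to 0.19 for Scn1a (SE 0.11) and 0.19 for Scn4b (SE 0.34), and none was called. Of all genes 101 of 18106 were (0.558%). The wild types of the Harlequin line were themselves more scattered: the SD of Scn4b was 39.4 CPM in Hq-WT and 13.6 CPM in Aifm1-WT, and that of Scn3b 38.2 and 9.38 CPM.

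**Figure D3:**
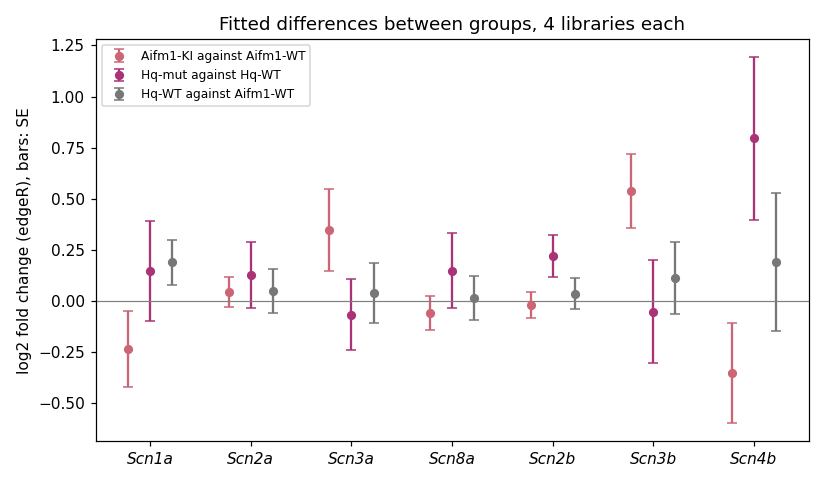
Fitted log2 fold change with its SE (vertical axis) for each member (horizontal axis) in the knock-in, the Harlequin mutant and the comparison of the wild types, 4 libraries in each group. The fits have no block, so the SEs do not use the pairing of the Harlequin libraries. Scn4b has the highest Harlequin value, 0.80, and Scn3b the highest knock-in value, 0.54, and neither passed the test.

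Some of the members varied together over the 16 libraries. Scn1a went with Scn8a and with Scn4b, Scn3a went with Scn3b, and Scn3b ran opposite to Scn1a and Scn4b. Pearson's r of log2 CPM was 0.84 for Scn1a with Scn8a, 0.75 for Scn1a with Scn4b and 0.76 for Scn3a with Scn3b, against -0.70 for Scn3b with Scn4b and -0.73 for Scn1a with Scn3b. Without the 3 libraries with high striatal markers, these were 0.86, 0.66, 0.60, -0.70 and -0.53. Scn2a went with Scn2b at 0.67 over 16 libraries and 0.72 over 13, and had an r of 0.05 with Scn4b. Scn3a had an r of -0.40 with Scn1a, -0.07 with Scn8a and -0.54 with Scn4b over 16 libraries and 0.06, 0.34 and -0.46 over 13. These are descriptions, since the libraries share groups, pairs and dissection.

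The ratio of Scn4b to Scn3b within a library, per kilobase, a measure chosen after the values were seen, ran from 0.154 in Aifm1-KI 2 to 1.97 in Hq-mut 4. It was 0.240, 0.311, 1.03 and 1.42 in Hq-WT 1 to 4 and 0.543, 0.858, 1.70 and 1.97 in Hq-mut 1 to 4, higher in the mutant of each pair. In Aifm1-WT it was 0.606 ± 0.157 and in Aifm1-KI 0.379 ± 0.260 (SD, n = 4), where library 3 had 0.754 and the other 3 had 0.154 to 0.309.

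Marker levels also varied with some members. The mean log2 CPM of the 6 parvalbumin neuron markers had an r of 0.78 with Scn4b, 0.67 with Scn1a, -0.79 with Scn3b and -0.80 with Scn3a over 16 libraries, and 0.68, 0.37, -0.68 and -0.70 over 13. These markers were Pvalb, Kcnc1, Kcnc2, Tac1, Syt2 and Nog. Their summed level was 336 to 505 CPM in Aifm1-KI, 479.7 to 524 CPM in Aifm1-WT, 449.9 to 595 CPM in Hq-WT and 439 to 651 CPM in Hq-mut, with none of the 6 at a count of 0. Pvalb alone was at 30.3, 7.57, 48.8 and 18.5 CPM in Aifm1-KI 1 to 4 and 40.4 to 57.1 CPM in Aifm1-WT. It was at 36.2 to 59.6 CPM in Hq-WT and 29.0 to 97.4 CPM in Hq-mut. Oligodendrocyte markers had an r of -0.66 with Scn3b and -0.65 with Scn3a, and choroid plexus markers -0.71 with Scn8a. The striatal marker level had an r of 0.57 with Scn3a and with Scn3b and -0.00265 with Scn4b. The part of cell composition in these values was not tested.

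**Figure D4:**
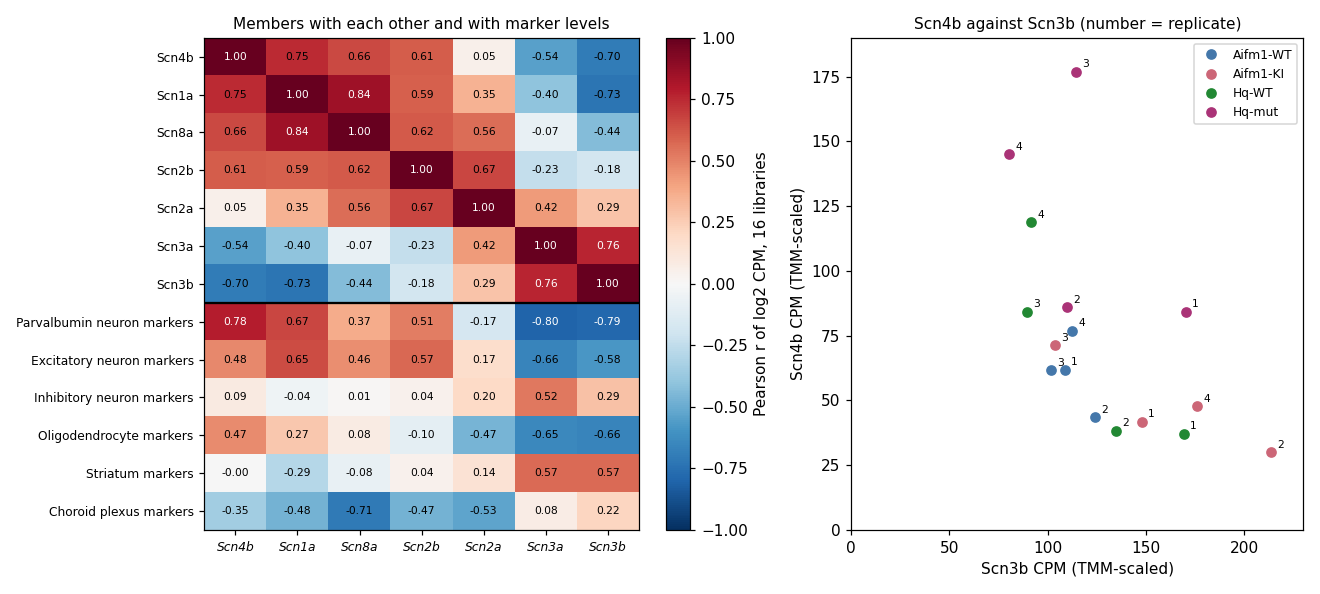
Left, Pearson's r of log2 CPM over 16 libraries between the 7 members (upper block) and between members and the mean level of 6 marker lists (lower block), on a colour scale from -1 to 1. Right, Scn4b against Scn3b in CPM, 1 point per library, numbered by replicate: Aifm1-KI 2 has the most Scn3b, 213 CPM, and the least Scn4b, 30.0 CPM, while Hq-mut 1 has 170.0 CPM of Scn3b and 84.2 CPM of Scn4b.

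The genes whose log2 CPM followed each member most closely were taken from 13410 genes that passed the filter. For Scn8a these were Gpr26 (r = 0.95), the calcium channel pore Cacna1a (0.94) and the adhesion molecule Cadm2 (0.94). Scn1a was followed by the potassium-dependent sodium-calcium exchanger Slc24a2 (0.95), the kinase subunit Pik3ca (0.95) and the T-type calcium channel Cacna1i (0.95), and Scn2a by the phosphatase Synj1 (0.94), serine racemase Srr (0.94) and the adhesion molecule Nrcam (0.94). For Scn3a they were March4 (0.95), the splicing regulator Ptbp2 (0.93) and Rpgr (0.92). Among the beta subunits, Scn2b had Vps33a (0.95), Atrnl1 and Pcnx2 (both 0.93), Scn3b had Ripor2, Lpin2 (both 0.94) and Grhl1 (0.93), and Scn4b had the phosphatase Ptpn11 (0.92), the formin Inf2 (0.92) and Heg1 (0.91). All values are over 16 libraries, picked as the highest of many, and the lowest of them without the 3 libraries high in striatal markers was 0.85.

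Another 6 genes of the sodium channel family were listed apart from the 7: Scn4a, Scn7a, Scn9a, Scn10a, Scn11a and the leak channel Nalcn. Of these, 3 passed the filter on low counts, and none was called by edgeR in any of the 4 comparisons, beside 0% to 0.558% of all genes. The muscle channel Scn4a and the sensory neuron channels Scn10a and Scn11a did not pass, at no more than 0.106, 1.61 and 1.75 CPM. The median log2 fold change of the 3 that passed was 0.81 in the knock-in, where that of all genes was 0.01, and -0.01 in Harlequin, where that of all genes was also 0.01. With the striatal marker level as covariate, Scn7a was at -0.41 and Scn9a at -0.40 in the knock-in.

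Scn7a, a sodium-sensing channel of glia and sensory neurons, was at 5.02, 9.29, 2.18 and 7.37 CPM in Aifm1-KI 1 to 4 and 2.14 to 4.44 CPM in the wild types, 1.01 on the log2 scale (SE 0.38, edgeR adjusted p = 0.401). Scn9a, a channel of pain-sensing neurons, was at 4.96, 12.7, 4.11 and 7.90 CPM against 3.51 to 5.30 CPM, 0.81 (SE 0.33, edgeR adjusted p = 0.419). Both were highest in Aifm1-KI 2, as was Scn3a. Nalcn, which sets the resting sodium leak, was at 124 ± 19.0 CPM in Aifm1-KI and 108 ± 8.05 CPM in Aifm1-WT (SD, n = 4), 0.22 on the log2 scale (SE 0.11, edgeR adjusted p = 0.468).

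**Figure D5:**
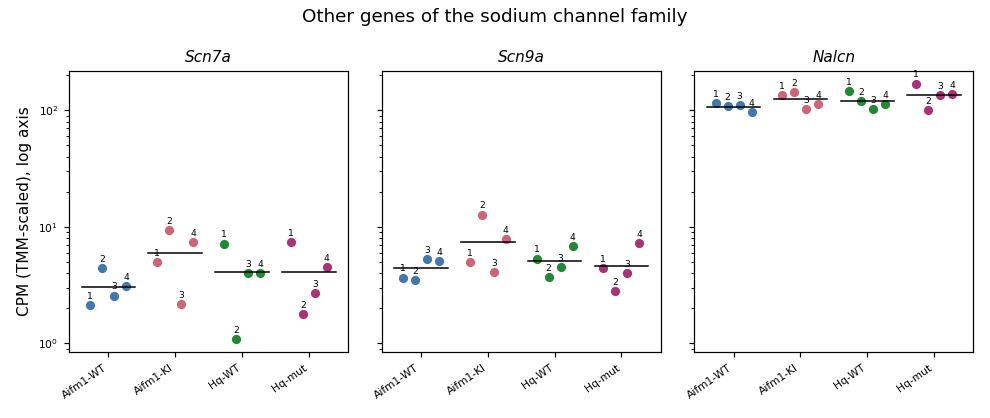
TMM-scaled CPM (vertical, 1 log axis for all panels) of the 3 other sodium channel family genes that passed the filter, by group (horizontal), with points numbered by replicate and a line at the arithmetic mean. Scn7a and Scn9a are highest in Aifm1-KI 2, at 9.29 and 12.7 CPM, and Nalcn lies at 96.1 to 169.9 CPM in all libraries.

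Genes that build the axon initial segment and node, where the channels are anchored, gave no edgeR call among 16 tested in any comparison with all its libraries. Of all genes, 0% to 0.558% were called in these comparisons. In the knock-in 11 of 16 had a fold change above 0, with a median of 0.04, beside 51.6% of all genes above 0. In Harlequin it was 14 of 16, with a median of 0.08, beside 53.1% of all genes. The median of all genes was 0.01 in either line. Tnr, tenascin-R of the matrix around nodes and perineuronal nets, had the smallest p in the knock-in. It was at 282 ± 21.9 CPM in Aifm1-KI and 215 ± 11.5 CPM in Aifm1-WT (SD, n = 4). That is 0.41 on the log2 scale (SE 0.07, edgeR adjusted p = 0.368). All knock-in libraries lay above all wild types, as did those of 2.03% of all genes tested. DESeq2 called Tnr at an adjusted p of 0.00121 and edgeR without Aifm1-KI 3 at 0.0435. With the striatal marker level as covariate, Tnr was at 0.25 (SE 0.08, edgeR adjusted p = 0.636). Without Aifm1-KI 2 and 4 it was at 0.31 (SE 0.06, edgeR adjusted p = 0.799). The member of smallest p was the spectrin gene Sptbn4 in Harlequin, at -0.15 without a block (SE 0.11, edgeR adjusted p = 0.99998). It was the axonal adhesion gene Cntn2 for the difference of effects, at 0.49 (SE 0.31, edgeR adjusted p = 0.952), and the potassium channel Kcna1 between wild types, at 0.24 (SE 0.12, edgeR adjusted p = 0.413). Without Hq-WT 2, Kcna1 was called at 0.37 (edgeR adjusted p = 0.0366).

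The 23 partners and regulators of the channels tested include fibroblast growth factor homologous factors, calmodulins and kinases. In the edgeR fits with all libraries and no block, 0 of them were called in any of the 4 comparisons. Of all genes, 0% to 0.558% were called in these fits. Fold changes were above 0 for 13 of 23 in the knock-in and 14 of 23 in Harlequin, with a median of 0.04 in both. Of all genes, 51.6% were above 0 in the knock-in and 53.1% in Harlequin, with a median of 0.01 in both. Csnk2a2, a catalytic subunit of casein kinase, which phosphorylates the ankyrin-binding part of sodium channels, was at 81.4 ± 1.78 CPM in Aifm1-KI and 74.3 ± 1.39 CPM in Aifm1-WT (SD, n = 4). That is 0.14 on the log2 scale (SE 0.05, edgeR adjusted p = 0.368). The calmodulin-dependent kinase Camk2d was at 91.9 ± 18.1 CPM in Hq-mut and 119 ± 42.5 CPM in Hq-WT (SD, n = 4). That is -0.40 on the log2 scale without a block (SE 0.23, edgeR adjusted p = 0.99998). Its difference of effects, -1.18 (SE 0.45, edgeR adjusted p = 0.946), also takes in the Aifm1 line. There Camk2d was at 192 ± 108 CPM in Aifm1-KI (91.4 to 328 CPM) and 112 ± 20.3 CPM in Aifm1-WT (SD, n = 4). Between wild types the channel-binding factor Fgf11 was at -0.30 (SE 0.10, edgeR adjusted p = 0.233).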

How the data were processed

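RNA-seq counts of 16 mouse cortex libraries in 4 groups of 4 were used. The authors deposited raw counts of reads for each Ensembl gene. Per the labels' protocols and the series' design text, libraries from TRIzol RNA were made with a KAPA mRNA-seq kit and sequenced as 51-base single-end reads on an Illumina HiSeq, trimmed, mapped to mm10 with STAR, counted with htseq-count and tested with edgeR. Per the submitters' processing notes, STAR was version 2.6 and SAMtools was used. The sources used here do not give the HTSeq version, annotation or strand setting. In the annotation used here, no opposite-strand gene shares an exon base with a member.

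IDs were paired with GENCODE M21 on GRCm38, which gave 55394 of 55573 IDs a symbol. CPM carry TMM factors over 16 libraries, log2 CPM a prior count of 2, and CPM per kilobase the length of merged exons. Each comparison was fitted over all genes with edgeR 4.0.16 in R 4.3.3 (TMM, default filter by group, quasi-likelihood F-test, no block). Calls are at an adjusted p (Benjamini-Hochberg) under 0.05, with 8 libraries in each fit of a line or of the wild types and 16 for the difference of effects. SE values are the fold change over the root of F. Alternatives were DESeq2 1.42.0, limma-voom (limma 3.58.1), RLE factors, no filter, left-out libraries, a replicate block and a striatal marker covariate. Some alternatives were chosen after seeing the data: other CPM scalings and transcript lengths, correlations without 3 libraries, and blocked fits without pair 2 or 3.

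The members, lists, markers and rules were chosen with earlier results of these data known. Besides the 7 members, the text names Aifm1, every gene of the other family list that passed the filter, the member of each other list with the smallest p (or up to 3 called), the 3 genes most like each member and genes overlapping one. Some listed genes and sequences are not reported here.

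Replicate numbers paired the Harlequin libraries: over genes, deviations from group means correlated at 0.358 to 0.494 between same-numbered libraries and at no more than 0.0847 otherwise. No library was a copy of another (chi-square per gene with a count 2.49 to 56.4 over 24 pairs within groups). A count of 0 allows up to 0.277 CPM in the shallowest and 0.0876 CPM in the deepest library, taking 3 counts as the limit, and this covers counting error only.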

Additional observations from a re-analysis of the deposited data

How the results depend on the processing

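The number of genes called by edgeR moved with the setting, while no member was called under any alternative tried. In the knock-in, 0 genes were called, and DESeq2 called 82, the fit with a striatal marker covariate 1, and fits without 1 library from 0 to 46, the highest without Aifm1-KI 3. In Harlequin 3 were called, against 1 with the striatal covariate, 1 without pair 2, 1 without pair 3, 1 with the replicate block without pair 3, 4 with the block without pair 2, and 1 to 2 without 1 library. The difference of effects had 2 calls, 5 with DESeq2 and 1 with limma-voom, and 1 to 2 without 1 library. Between wild types there were 101, 560 with no filter, 421 with DESeq2 and 32 to 231 without 1 library. The cause was not tested. The replicate block left 3 calls in Harlequin and changed no call there among the members. In the knock-in line same-numbered libraries correlated at -0.0202 to 0.0820, and those with other numbers at -0.115 to 0.108. Whether the numbers mark pairs there is not settled by such values. With the block, 0 genes were called in the knock-in line, as without it. Scn3b was then at 0.49 (SE 0.12) and Scn4b at -0.38 (SE 0.14), with smaller SEs than without it. For Scn8a the SE was not smaller, at 0.088 with the block and 0.085 without.

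Of the members' fold changes, 12 of 105 alternative values had the other sign in the knock-in, 10 of 126 in Harlequin, 1 of 140 for the difference and 8 of 84 between wild types. Scn4b stayed above 0 in all 18 Harlequin alternatives, from 0.58 to 1.19, and Scn2b from 0.17 to 0.28. Scn3b in the knock-in ran from -0.12 to 0.68. The pairs with a higher mutant fell from 3 to 2 for Scn1a and from 2 to 1 for Scn3b with CPM over the total count. Uncalled values of other genes changed sign with the striatal covariate in the knock-in, to -0.41 for Scn7a and -0.40 for Scn9a. In Harlequin, Scn7a was 0.089 with limma-voom, 0.039 with the block, 0.12 with the covariate, 0.13 without pair 3, 0.22 with the block without pair 3 and -0.46 to 0.42 without 1 library. Without 1 library, Scn9a was -0.48 to 0.021 in Harlequin, Nalcn -0.19 to 0.062 for the difference and Scn7a -0.045 to 0.74 between wild types. Calls gained were Tnr (0.40) with DESeq2, Tnr (0.44) without Aifm1-KI 3 and Kcna1 (0.37) without Hq-WT 2. Every member had at least 522 counts in every library, so counting error was small beside the spread between libraries.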
